A study of Mus musculus with 2 samples.

Results

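The genes described in the mouse endometrium were A2ml1, A2m, Ctnnd2, Dclk1 and Bard1. They are 5 of the 19070 genes that the probe set measured, and they were chosen by their high ratio of UMIs in uterine epithelium, Erbb3 d/d over Erbb3 f/f. That ratio is therefore given as a description, with no test. The question asked of them was whether the higher level sat in epithelial cells that were in the cell cycle or in those that were not. For 4 of the 5 the epithelial UMIs allowed a ratio between the libraries. A2m was an exception, since it was mainly a stromal gene in both libraries and was almost absent from epithelial cells.

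The study concerned Erbb3, a receptor of the ErbB family, in the uterine stroma. Endometrium was taken on day 3 of pregnancy, fixed before it was dissociated, and read with Chromium Flex, an assay in which paired DNA probes are joined on the transcripts of fixed cells and counted by unique molecular identifier (UMI). The control group was Erbb3 f/f, and the other group was Erbb3 d/d, described by the submitters as a deletion in the stroma. The Cre driver, the age of the females and the number of mice in each library are not given in the sources used here. Each genotype had 1 library, so no difference between them could be set against the spread between animals. Every interval below is a 95% interval for counting error alone.

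A2ml1 and A2m belong to the alpha-2-macroglobulin family, large secreted proteins that trap proteases, the former known from stratified epithelia and the latter from plasma. Ctnnd2 encodes delta-catenin, a relative of p120-catenin that binds the tails of cadherins and is best known from neurons. Dclk1 encodes a kinase with doublecortin domains that binds microtubules, and it is widely used to mark tuft cells of the gut. Bard1 is the partner of Brca1 in a ubiquitin ligase that acts in repair of broken DNA by homologous recombination. In the uterus of early pregnancy the luminal epithelium proliferates under estrogen and stops dividing as progesterone rises, so cell cycle genes change with the stage of the epithelium.

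The f/f library gave 5503 cells and the d/d library 1830 cells after filtering, with medians of 809 and 764.5 UMIs per cell. No cell barcode was shared, although the first 16 bases of 158 barcodes occurred in both libraries. Cells were sorted into classes by UMIs of marker genes: a class needed at least 2 UMIs of its markers, making up at least 75% of the UMIs of all marker lists. Epithelial-gated cells numbered 1759 (f/f) and 599 (d/d), of which 359 and 139 sat at exactly 2 marker UMIs. Stromal-gated cells numbered 1402 and 311. All 16 epithelial and all 10 stromal markers were detected in their own class in both libraries, and the median number of UMIs from other classes' markers in an epithelial-gated cell was 0 in each. Endothelial-gated cells (94 and 23) and myeloid-gated cells (42 and 22) were few, and 39.6% of f/f and 47.4% of d/d cells met no gate. Erbb3 itself had 13 UMIs in f/f stromal-gated cells and 3 in d/d, that is 9.94 and 11.7 UMIs per 1000000 UMIs of the class (CPM). In the stromal cell clusters described below it had 14 and 1 UMIs, or 10.1 and 3.1 CPM, so the deletion could not be checked at this depth. Epithelial-gated cells had 145 and 29 Erbb3 UMIs, or 80.2 and 51.7 CPM. Where its probes lie relative to the deleted part is not given in the sources used here.

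A2ml1 was nearly silent in f/f epithelium and readily counted in d/d epithelium. It lies on chromosome 6, 128539821 to 128581608, minus strand (ENSMUSG00000047228, protein-coding, GENCODE M21 on GRCm38). In epithelial-gated cells it had 15 UMIs in f/f, or 8.30 CPM (4.64 to 13.7), and 69 UMIs in d/d, or 123 CPM (95.7 to 156). The level in d/d was 14.8 times that in f/f, a log2 ratio of 3.89 (3.07 to 4.80). This was the highest ratio among the 8018 genes that reached 50 UMIs in the 2 libraries summed. No f/f cell held more than 1 A2ml1 UMI, while 10 d/d cells held 2 and 4 held 3. The gene was also higher outside the epithelial gate. Stromal-gated cells had 1 UMI in f/f (0.765 CPM) and 11 in d/d (42.8 CPM), and ungated cells had 9 (3.96 CPM) and 78 (91.3 CPM). The log2 ratios were 5.81 (3.03 to 11.2) in stromal-gated and 4.53 (3.53 to 5.71) in ungated cells. In stromal clusters, with 2 and 16 UMIs, the log2 ratio was 5.10 (3.01 to 8.27). By gate, the d/d stromal level was 34.8% of the epithelial one. The keratins Krt8, Krt18 and Krt19, epithelial genes that were not used in the gate, stood at 8.79%, 24.95% and 20.7% of their epithelial level in the same d/d stromal cells. In f/f they stood at 16.1%, 16.1% and 11.02%. The part of carried-over RNA or of mixed cells in the stromal A2ml1 count was not tested. Endothelial- and myeloid-gated cells held no A2ml1 UMI, which allows up to 39.4 and 94.3 CPM in f/f and 177 and 171 CPM in d/d.

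Dclk1 was a stromal gene in f/f, and in d/d its epithelial level was not below the stromal one. It lies on chromosome 3, 55242364 to 55539068, plus strand (ENSMUSG00000027797, protein-coding). Epithelial-gated cells had 24 UMIs in f/f, or 13.3 CPM (8.51 to 19.8), and 94 in d/d, or 168 CPM (135 to 205). The log2 ratio was 3.66 (3.00 to 4.37), the second highest of all counted genes. Stromal-gated cells had 128 UMIs in f/f (97.9 CPM, 81.7 to 116) and 38 in d/d (148 CPM, 105 to 203), a log2 ratio of 0.60 (0.03 to 1.13). The epithelial level was thus far below the stromal one in f/f, with a log2 ratio of epithelium over stroma of -2.88 (-3.58 to -2.24). In d/d the same quantity was 0.18 (-0.38 to 0.76), and the interval included 0. With cells taken by cluster it was 0.57 (0.07 to 1.095), at 188 CPM in epithelium and 127 CPM in stroma. The d/d value thus depended on how the cells were taken. The 10 stromal markers summed to 198 CPM in f/f and 159 CPM in d/d epithelial-gated cells, but the gate itself limits their level, and the part of stromal RNA in the epithelial Dclk1 count was not tested.

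Because Dclk1 marks tuft cells elsewhere, 8 tuft cell genes were read in the same epithelial-gated cells. Pou2f3, Gnat3, Il25, Sh2d6, Gfi1b and Chat had 0 UMIs in both libraries. Trpm5 had 1 UMI in f/f and 0 in d/d. Avil, which encodes an actin-binding protein, had 178 and 117 UMIs and made up nearly the whole list sum of 99.02 and 209 CPM. Of 6 genes of ciliated cells and oviduct, 4 had UMIs in each library, with list sums of 37.1 and 32.1 CPM, led by Ovgp1.

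Ctnnd2 was low everywhere in f/f and higher in the d/d epithelium. It lies on chromosome 15, 30172593 to 31029341, plus strand (ENSMUSG00000022240, protein-coding). Epithelial-gated cells had 22 UMIs in f/f, or 12.2 CPM (7.63 to 18.4), and 60 in d/d, or 107 CPM (81.6 to 138). The log2 ratio was 3.14 (2.41 to 3.91). In stromal-gated cells the counts were 7 and 4, or 5.35 and 15.6 CPM, and their log2 ratio of 1.54 had an interval that included 0 (-0.68 to 3.52). In stromal clusters, with 10 and 8 UMIs, it was 1.78 (0.235 to 3.27). Ungated cells had 12 and 41 UMIs, a log2 ratio of 3.19 (2.23 to 4.25), so the higher level was not confined to the epithelial gate. In f/f the epithelial level was not separable from the stromal one (log2 ratio 1.185, -0.09 to 2.66), whereas in d/d it was higher by 2.78 on the log2 scale (1.35 to 4.70).

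Bard1 was low in f/f and higher in the d/d epithelium, and in neither library was it high in stroma. It lies on chromosome 1, 71027498 to 71103146, minus strand (ENSMUSG00000026196, protein-coding). Epithelial-gated cells had 38 UMIs in f/f, or 21.0 CPM (14.9 to 28.9), and 91 in d/d, or 162 CPM (131 to 199). The log2 ratio was 2.95 (2.39 to 3.53). Stromal-gated cells had 8 and 3 UMIs, or 6.12 and 11.7 CPM, and the interval of their log2 ratio of 0.93 included 0 (-1.62 to 2.99). In stromal clusters, with 12 and 8 UMIs, it was 1.52 (0.02 to 2.93). Ungated cells had 39 and 83 UMIs, a log2 ratio of 2.50 (1.94 to 3.09), so here too the higher level was not confined to the epithelial gate. In both libraries Bard1 was higher in epithelium than in stroma, at a log2 ratio of epithelium over stroma of 1.78 (0.66 to 3.09) in f/f and 3.796 (2.20 to 6.10) in d/d.

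A2m was mainly a stromal gene, and its few epithelial UMIs were all from d/d. It lies on chromosome 6, 121635376 to 121679227, plus strand (ENSMUSG00000030111, protein-coding). Epithelial-gated cells held 0 UMIs in f/f, which allows up to 1.66 CPM, and 3 UMIs in d/d, or 5.35 CPM, in 2 of the 599 cells. With 0 UMIs in f/f no fold could be computed, and the d/d count was not above the limit of 3 counts. The interval of the log2 ratio began at 0.41. The part of stromal RNA in this epithelial count was not tested. Stromal-gated cells held 53 UMIs in f/f, or 40.5 CPM (30.4 to 53.0), and 33 in d/d, or 128 CPM (88.4 to 180). The stromal log2 ratio was 1.66 (0.99 to 2.32), and over all cells used, with 67 and 71 UMIs, it was 1.77 (1.27 to 2.28). In d/d the epithelial level was below the stromal one by a log2 ratio of -4.59 (-6.935 to -2.91). Ungated cells held 14 and 35 UMIs, or 6.15 and 41.0 CPM.

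**Figure D1:**
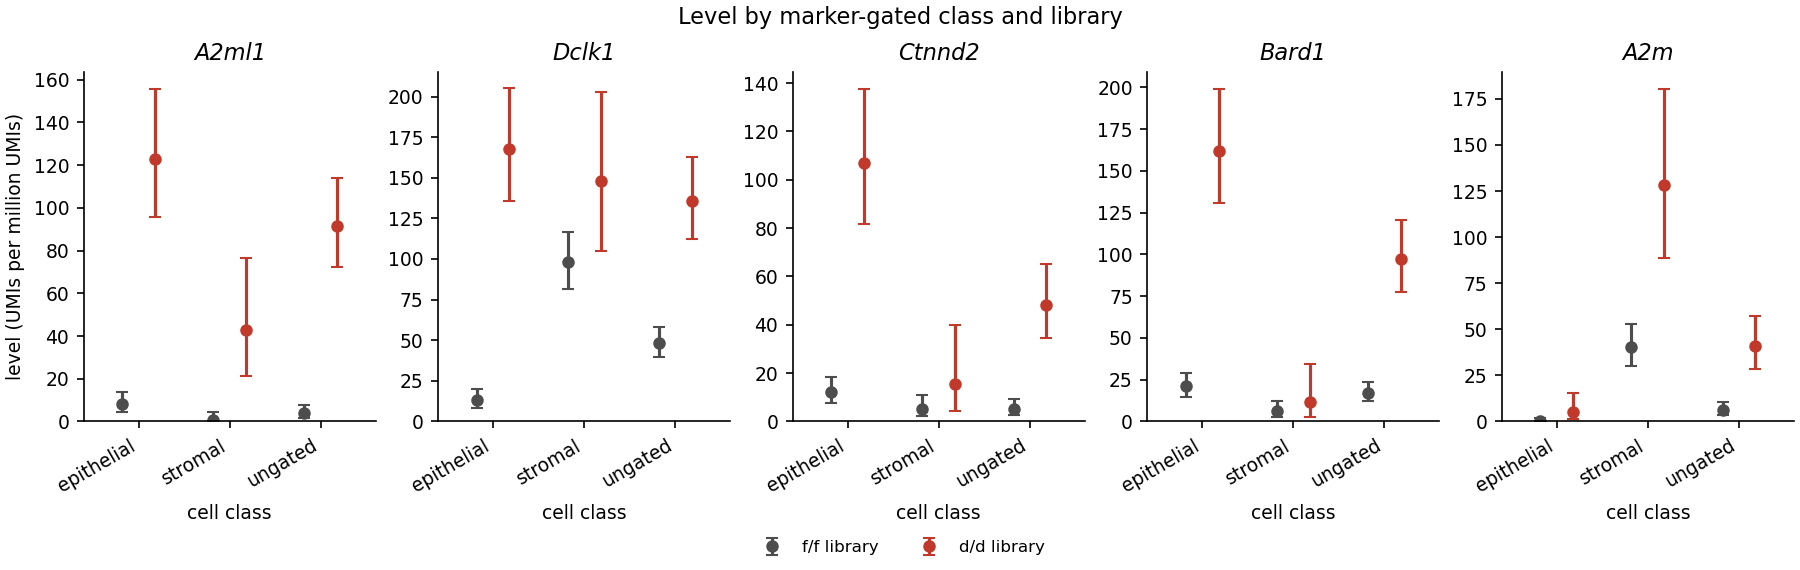
Level of each gene in CPM (linear axis from 0, its own scale per panel) in epithelial-gated, stromal-gated and ungated cells of the f/f library (grey) and the d/d library (red); bars are exact Poisson intervals. In the epithelial class the d/d points of A2ml1, Dclk1, Ctnnd2 and Bard1 lie between 107 and 168 CPM and the f/f points between 8.30 and 21.0 CPM, while A2m stands at 0 and 5.35 CPM there and at 40.5 and 128 CPM in stromal-gated cells.

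In the epithelial gate 5.76% of the 8018 counted genes were at least 2-fold higher in d/d and 5.35% at least 2-fold lower, with a median log2 ratio of -0.02 over all of them. A2ml1, Dclk1, Ctnnd2 and Bard1 passed the minimum of 50 UMIs and ranked 1, 2, 4 and 5, and A2m did not pass it. Since this contrast chose the genes, nothing is read from their place in it. The nearest genes that are not in the set were Pthlh at rank 3 (log2 ratio 3.505), H2-Q7 at rank 6 (2.69), Cdkn1a at rank 7 (2.63), Rad51b at rank 8 (2.35) and Ccdc80 at rank 9 (2.34). In stromal-gated cells 2.35% of 7196 genes were at least 2-fold higher in d/d and 5.02% at least 2-fold lower. A2m and Dclk1 passed the minimum there, and A2m alone was past 2-fold.

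**Figure D2:**
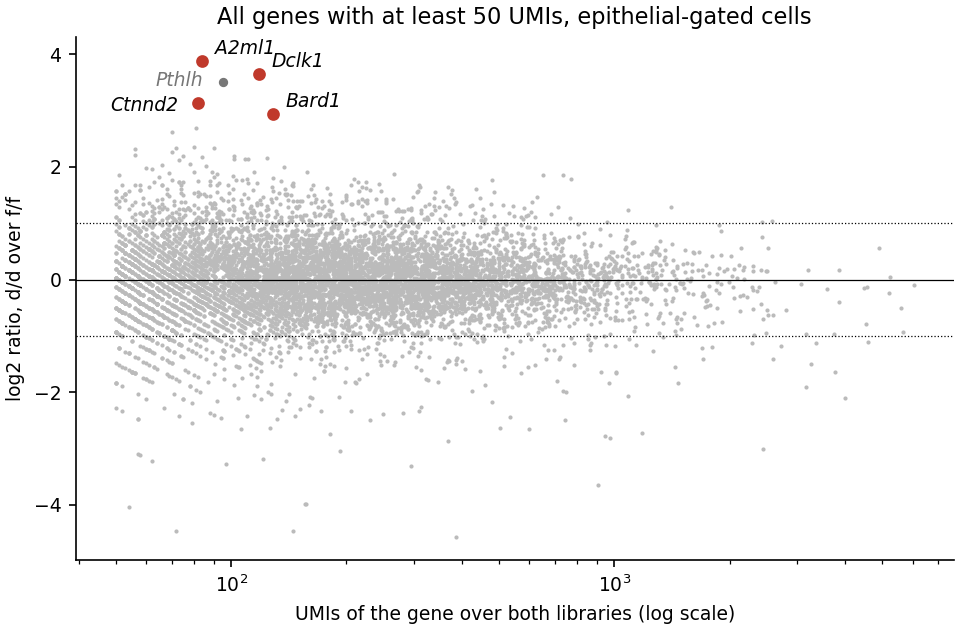
Log2 ratio of levels between the libraries, positive where d/d is higher (vertical), against the UMIs of each gene over both libraries (horizontal, log scale) for the genes with at least 50 UMIs in epithelial-gated cells; dotted lines mark 2-fold, and 3 genes at 0 in 1 library are not drawn. A2ml1, Dclk1, Ctnnd2 and Bard1 (red) lie between 2.95 and 3.89, with Pthlh among them at 3.505.

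The UMIs of these genes were spread over many d/d cells. Dclk1 was seen in 77 of the 599 d/d epithelial-gated cells, Bard1 in 73, Ctnnd2 in 52 and A2ml1 in 51, and no cell held more than 3 UMIs of any of them. The 10 highest d/d cells carried 23.4% of the Dclk1 UMIs, 23.1% of the Bard1 UMIs, 30% of the Ctnnd2 UMIs and 34.8% of the A2ml1 UMIs. After each cell had been thinned to 500 UMIs, A2ml1 was seen in 0.228% of f/f (4 of 1757, 0.0621 to 0.582%) and 5.51% of d/d epithelial-gated cells (33 of 599, 3.82 to 7.65%), against 0.853% and 8.51% without thinning. In thinned stromal-gated cells, given for comparison, the A2ml1 share was 0 of 1393 cells in f/f, which allows up to 0.215%, and 0.965% in d/d (3 of 311). Median depths were 872 and 839 UMIs in the epithelial gate and 740 and 681 in the stromal gate. Dclk1 was seen in 0.626% and 6.51% of thinned epithelial-gated cells, Ctnnd2 in 0.569% and 4.67%, and Bard1 in 1.02% and 7.35%. The stromal shares were 3.59% and 6.43% for Dclk1, 0.287% and 0.643% for Ctnnd2 and 0.215% and 0.322% for Bard1, so in d/d the Dclk1 share was near that of the epithelial gate.

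Each of these genes was seen in 8.51% to 12.9% of d/d epithelial-gated cells, so few cells would hold 2 of them even if the genes were independent. Of the 599 d/d epithelial-gated cells, 397 held no UMI of A2ml1, Ctnnd2, Dclk1 or Bard1, 158 held 1 of these genes, 38 held 2 and 6 held 3 or more. Dclk1 and Bard1 were found together in 15 cells, where the product of their shares gives 9.38. For Dclk1 and Ctnnd2 the numbers were 13 and 6.68, for Ctnnd2 and Bard1 10 and 6.34, and for A2ml1 and Dclk1 9 and 6.56. For A2ml1 and Bard1 they were 8 and 6.22, and for A2ml1 and Ctnnd2 4 and 4.43, the only pair below the product. Cells that held a UMI were deeper than the rest, with median depths of 951.5 to 1023 UMIs for these 4 genes in d/d against 839 over all d/d epithelial-gated cells, and depth alone raises such joint counts.

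To ask where the higher level sat, epithelial-gated cells were divided by their UMIs of 72 genes of DNA replication and mitosis, counted after thinning to 500 UMIs. None of the members is among those genes. Cells with 0 such UMIs are called non-cycling and cells with 2 or more cycling below; these are ranges of a count, not cell types. Cycling cells made up 30.5% of the f/f (536 of 1757, 28.4 to 32.7%) and 74.5% of the d/d epithelial-gated cells (446 of 599, 70.8 to 77.9%). Non-cycling cells were 43.3% (760 cells) and 15.03% (90 cells). The cycling cells of both libraries held similar amounts of cell cycle RNA without thinning, 13639 CPM in f/f and 15492 CPM in d/d. The small number of d/d non-cycling cells limits every value given for them.

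Dclk1 was higher in d/d in non-cycling and in cycling epithelium. Non-cycling cells had 4 UMIs in f/f (5.66 CPM, 1.54 to 14.5) and 10 in d/d (146 CPM, 69.9 to 268), a log2 ratio of 4.69 (2.89 to 6.81). Cycling cells had 6 UMIs in f/f (9.17 CPM) and 78 in d/d (176 CPM, 139 to 220), a log2 ratio of 4.265 (3.08 to 5.755). Cells with 1 cycle UMI had 14 UMIs in f/f (31.4 CPM) and 6 in d/d (120 CPM), and their log2 ratio was lower, 1.93 (0.27 to 3.40). Within the d/d library, cycling over non-cycling cells gave a log2 ratio of 0.275 (-0.68 to 1.39), whose interval includes 0. The higher Dclk1 was thus counted on both sides of the division.

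Ctnnd2 was likewise higher in d/d on both sides, from fewer UMIs. Non-cycling cells had 5 UMIs in f/f (7.08 CPM) and 4 in d/d (58.3 CPM, 15.9 to 149), a log2 ratio of 3.04 (0.71 to 5.26). Cycling cells had 11 in f/f (16.8 CPM) and 49 in d/d (111 CPM, 82.0 to 146.5), a log2 ratio of 2.72 (1.76 to 3.81). Cycling over non-cycling cells gave a log2 ratio of 1.25 (-0.39 to 3.125) for f/f and of 0.93 (-0.52 to 2.86) for d/d, and both intervals included 0. With cells taken by cluster they were 1.94 (0.12 to 4.37) for f/f, from 15 and 3 UMIs, and 0.94 (-0.35 to 2.60) for d/d, so the f/f value depended on how the cells were taken.

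A2ml1 in d/d stood higher in cycling than in non-cycling cells. Of its 69 UMIs there, 62 came from cycling cells, which held 78.85% of the UMIs of the d/d class, and 3 from non-cycling cells. Most d/d UMIs of Dclk1 (78 of 94) and Ctnnd2 (49 of 60) came from cycling cells as well. The cycling level of A2ml1 was 6.11 CPM in f/f (4 UMIs) and 140 CPM in d/d (108 to 180), a log2 ratio of 4.52 (3.09 to 6.44). The non-cycling level was 11.3 CPM in f/f (8 UMIs) and 43.7 CPM in d/d (9.02 to 128), and the log2 ratio of 1.95 had an interval that included 0 (-0.60 to 4.01). Cells with 1 cycle UMI had 3 A2ml1 UMIs in f/f (6.73 CPM) and 4 in d/d (80.0 CPM), a log2 ratio of 3.57 (1.01 to 6.34). Cycling over non-cycling cells gave a log2 ratio of 1.68 (0.07 to 4.00) in d/d. In f/f it was -0.89 (-3.07 to 1.01), and 0.03 (-1.69 to 1.84) when cells were taken by cluster, so no direction can be given there. Whether the 2 libraries differ in this was not tested.

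Bard1 was tied to the cycle in both libraries, and its level within cycling cells was higher in d/d. In f/f, 35 of its 38 UMIs came from cycling cells, at 53.5 CPM (37.3 to 74.4), and 2 from non-cycling cells, at 2.83 CPM, a log2 ratio of 4.24 (2.28 to 7.34). In d/d, 87 of 91 came from cycling cells, at 197 CPM (158 to 243), and 3 from non-cycling cells, at 43.7 CPM, a log2 ratio of 2.17 (0.57 to 4.475). Between libraries the cycling cells gave a log2 ratio of 1.88 (1.30 to 2.49) and the non-cycling cells 3.95 (0.82 to 7.53). The latter rests on 2 and 3 UMIs, neither above the limit of 3 counts. Cycling cells that held UMIs of both the replication and the mitosis genes had Bard1 at 62.9 CPM in f/f (25 UMIs) and 231 CPM in d/d (67 UMIs).

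**Figure D3:**
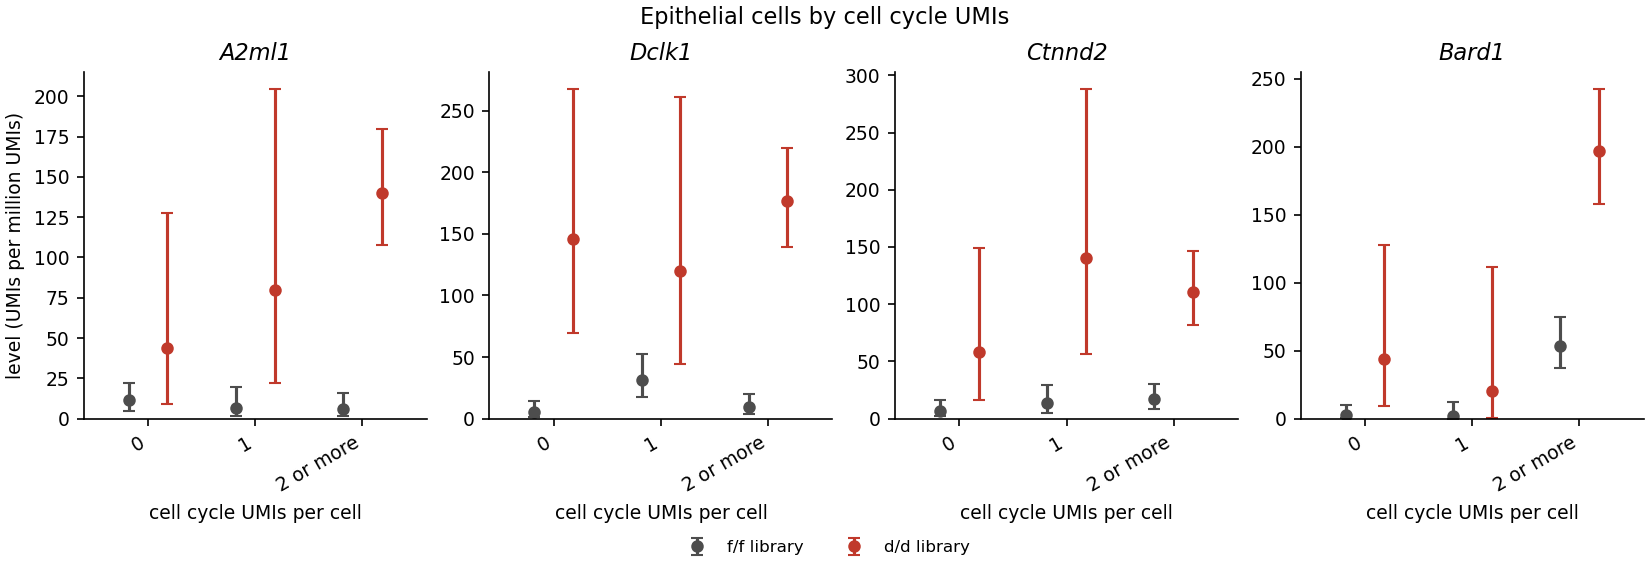
Level in CPM (linear axis from 0, its own scale per panel) of A2ml1, Dclk1, Ctnnd2 and Bard1 in epithelial-gated cells with 0, 1, and 2 or more cell cycle UMIs per cell, f/f in grey and d/d in red, with exact Poisson intervals. Dclk1 in d/d stands at 146 and 176 CPM at the ends of the division, and Bard1 in f/f goes from 2.83 to 53.5 CPM.

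In 4400 genes with at least 50 UMIs in non-cycling cells, 3.23% were at least 2-fold higher in d/d and 11% at least 2-fold lower, and no member reached that minimum there. In cycling cells 3.04% of 5821 genes were at least 2-fold higher and 3.75% at least 2-fold lower. A2ml1, Dclk1, Ctnnd2 and Bard1 passed the minimum and the fold there, and since the cells overlap with those that chose them, this is no added evidence.

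The make-up of the epithelium and the levels within it were then separated. The f/f levels of the 3 groups of cells were reweighted to the d/d make-up. For Bard1 this raised the f/f level from 21.0 to 42.7 CPM, against 162 CPM in d/d, so of the log2 ratio of 2.95 a part of 1.02 went with the larger share of cycling cells and 1.925 with higher levels within the groups. For Ctnnd2 the parts were 0.33 and 2.80. For A2ml1 they were -0.29 and 4.18, and for Dclk1 -0.31 and 3.97. The negative signs depend on the weighting. With the d/d levels reweighted to the f/f make-up instead, the part within the groups was 3.40 for A2ml1 and 3.50 for Dclk1, below their total log2 ratios of 3.89 and 3.66, and 3.00 for Ctnnd2 and 2.15 for Bard1. With cells taken by cluster the make-up part of A2ml1 was 0.19, of the other sign, and those of Ctnnd2, Dclk1 and Bard1 were 0.41, -0.10 and 0.83. These parts have no interval and rest on few f/f UMIs.

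Without thinning, the non-cycling cells held 558 CPM of the cycle genes in f/f and 437 CPM in d/d, and 533 and 242 CPM with cells taken by cluster, levels that the division itself keeps low. To read genes that the division did not use, the cycle genes were split into 36 genes used to divide the cells and 36 others that were only read. Cells with 0 UMIs of the former, 1026 and 132 in number and so not the same cells as above, had 668 CPM of the latter in f/f (617.5 to 721.5) and 1176 CPM in d/d (976 to 1405). Cells with 2 or more had 7946 and 7984 CPM. The part of cycling cells that this division misses in the non-cycling d/d values was not tested.

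The division was repeated on whole clusters of cells. The Leiden clusters with at least 75% of their marker UMIs from epithelial markers, 3 in number, held 1952 f/f and 980 d/d cells. There 5.37% of 8497 genes were at least 2-fold higher in d/d and 4.92% at least 2-fold lower. The log2 ratio was 4.08 for A2ml1 (15 and 114 UMIs, 3.29 to 4.96), 3.50 for Dclk1 (33 and 168, 2.95 to 4.08), 3.10 for Ctnnd2 (23 and 89, 2.43 to 3.83) and 2.66 for Bard1 (52 and 148, 2.19 to 3.14). Non-cycling cells of these clusters, 761 and 126, gave log2 ratios of 3.87 for Dclk1 (2.57 to 5.31), 3.61 for Ctnnd2 (1.25 to 6.30), 4.46 for Bard1 (1.98 to 7.80) and 1.87 for A2ml1 (-0.75 to 4.10). Of 4250 genes counted in them, 3.08% were at least 2-fold higher and 9.08% at least 2-fold lower, and no member reached the minimum. In cycling cells they were 3.72, 2.61, 1.76 and 3.97. A2m had 0 and 8 UMIs in these epithelial clusters and 52 and 49 in the stromal ones, where its log2 ratio was 2.015 (1.42 to 2.61). The d/d stromal level of A2m was 152 CPM and the d/d epithelial level 8.96 CPM.

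**Figure D4:**
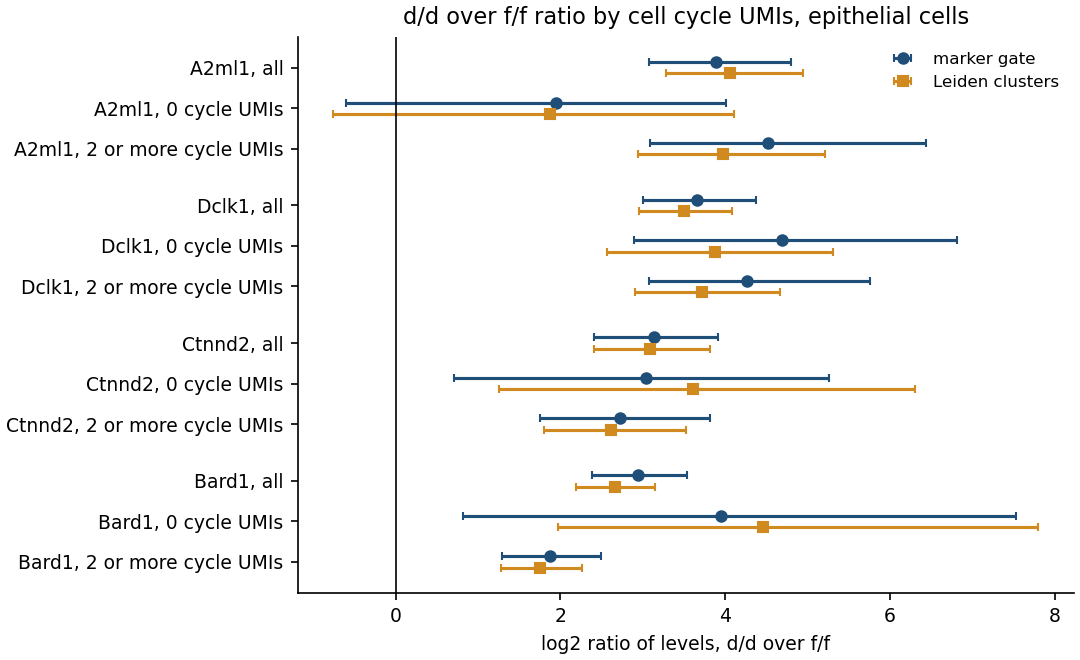
Log2 ratio of levels, positive where d/d is higher, in epithelial cells, with exact conditional binomial intervals, for all cells of the division, cells with 0 and cells with 2 or more cell cycle UMIs, by marker gate (blue circles) and by Leiden clusters (orange squares). Of the non-cycling ratios that of A2ml1 alone has intervals that include 0, and the Bard1 ratio in cycling cells is the lowest of its 3 under both ways of choosing cells.

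The 3 epithelial clusters separated the genes further. The 452 f/f and 599 d/d cells of cluster 1 had the most cell cycle RNA, 17777 and 16802 CPM. In its f/f and d/d cells A2ml1 stood at 10.8 and 153.5 CPM, Dclk1 at 17.0 and 196 CPM, Ctnnd2 at 18.5 and 96.4 CPM and Bard1 at 72.5 and 211 CPM. Cluster 6 held 347 f/f and 350 d/d cells with far less cell cycle RNA, 2235 and 4554 CPM. Dclk1 stood there at 42.1 and 180 CPM, Ctnnd2 at 17.55 and 113 CPM, A2ml1 at 3.51 and 74.2 CPM (1 and 19 UMIs) and Bard1 at 0 and 74.2 CPM (0 and 19 UMIs). Cluster 0 held 1153 f/f cells and 31 d/d cells, so that nearly all of its cells came from the f/f library and its d/d levels rest on 0 to 2 UMIs per gene. The genes that formed the clusters include genes that differ between the libraries, so cluster sizes are not compared.

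Epithelial-gated cells were also divided by 4 sets of marker genes of epithelial states, a cell going to the set of which it had most UMIs. The Lrp2 set (Lrp2, Slc5a11, Slc51a) took 1002 f/f and 52 d/d cells, the Muc4 set (Muc4, Ptpn22) 77 and 93, the Ltf set (Ltf, Clca3b) 96 and 78, and 358 and 332 cells had no UMI of any set. In the 128 and 34 cells tied between sets, the Dclk1 log2 ratio was 1.48 with an interval that included 0 (-0.85 to 3.70), and those of A2ml1 and Ctnnd2 were 3.61 (1.215 to 6.91) and 3.39 (0.90 to 6.73). Bard1 had 0 and 6 UMIs there. With cells taken by cluster the Dclk1 log2 ratio of tied cells was 2.69 (0.73 to 5.19), so this interval depended on how the cells were taken. Dclk1 was higher in d/d in these 3 sets and in cells of no set. It stood at 8.26 and 173 CPM in the Lrp2 set (9 UMIs in each library), 37.5 and 251 CPM in the Muc4 set, 25.75 and 120 CPM in the Ltf set and 6.91 and 165 CPM in cells of no set. Ctnnd2 was higher in all 4 as well, with log2 ratios of 3.73 (2.13 to 5.23) in the Lrp2 set, 2.91 (0.06 to 8.37) in the Muc4 set, 2.44 (0.05 to 5.75) in the Ltf set and 3.36 (1.68 to 5.72) in no set. With cells taken by cluster the Ctnnd2 intervals included 0 in the Muc4 set (2.52, -0.24 to 7.94) and the Ltf set (1.755, -0.30 to 4.30).

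In d/d, A2ml1 stood at 157 CPM in the Muc4 set (15 UMIs, 87.9 to 259) and 148 CPM in cells of no set (43 UMIs, 107 to 199). In the Ltf set it stood at 26.7 CPM (2 UMIs, 3.23 to 96.4), close to the f/f level of 25.75 CPM there (3 UMIs), with a log2 ratio of 0.05 (-3.53 to 3.18). This near equality was not seen with cells taken by cluster, where the Ltf set held 1 UMI in f/f (7.51 CPM) and 8 in d/d (76.0 CPM). Its log2 ratio was then 3.34 (0.44 to 8.81). In the Lrp2 set A2ml1 had 2 d/d UMIs, or 38.4 CPM. Among cycling d/d cells it had 14 UMIs in the Muc4 set (179 CPM) and 39 in cells of no set (162 CPM). The cycling d/d cells of the Ltf set held 2 (34.7 CPM). The 28 of the Lrp2 set held 0, which allows up to 97.2 CPM. In f/f the Muc4 set held no A2ml1 UMI. Bard1 stood at 120 to 189 CPM in the 4 d/d groups and at 17.3 to 37.5 CPM in the f/f ones. The intervals of its log2 ratio included 0 in the Muc4 set (1.86, -0.0049 to 4.31) and the Ltf set (1.81, -0.03 to 3.96). With cells taken by cluster both intervals were above 0, at 2.33 (0.30 to 5.47) and 2.02 (0.50 to 3.82). The gland set (Foxa2, Cxcl15, Syn2, Wfdc3, Spink1) held 98 f/f and 10 d/d cells. No member had a UMI in those 10 d/d cells, where the limit of 3 counts is 326 CPM, above the d/d level of every member in the other 3 sets and in cells of no set. By cluster the gland set had 28 and 15 cells, and A2ml1 and Bard1 had 2 d/d UMIs each, so the d/d level in glands was not measurable at this depth.

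**Figure D5:**
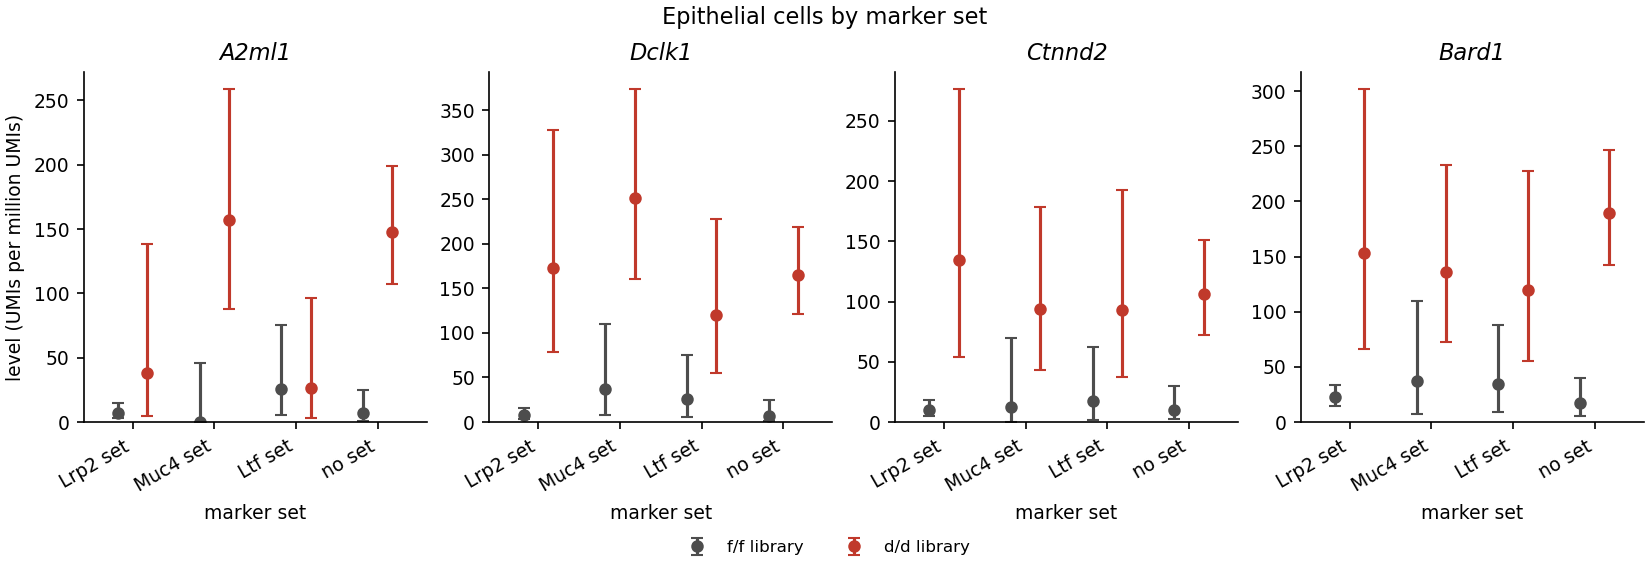
Level in CPM (linear axis from 0, its own scale per panel) in epithelial-gated cells by marker set, f/f in grey and d/d in red, with exact Poisson intervals. Dclk1 and Ctnnd2 are higher in d/d in all 4 groups, and A2ml1 is at 26.7 CPM in d/d cells of the Ltf set against 157 CPM in the Muc4 set.

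Relatives and partners of the members were read in the same epithelial-gated cells. Of 7 further genes of the macroglobulin and complement family, 1 reached 50 UMIs. This was C3, the central complement component, at 55.9 and 125 CPM (log2 ratio 1.16, 0.70 to 1.61). C4b had 24 and 7 UMIs, Pzp 0 and 2, and Mug1, Mug2, Cd109 and Hc none in either library. Among 18 genes of extracellular proteases, their inhibitors and Lrp1, 7 were counted, with a median log2 ratio of -0.35. Mmp7, a protease of epithelia, was past 2-fold (1.06, 0.17 to 1.91, from 31 and 20 UMIs), and none was 2-fold lower, with the lysosomal protease Ctsd lowest at -0.96 (-1.19 to -0.73).

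Among other catenins and junction proteins the shares past 2-fold were near those of all counted genes. Of 20 such genes 13 were counted, with a median log2 ratio of -0.22, 0 at least 2-fold higher and 1 at least 2-fold lower, beside 5.76% and 5.35% of all counted genes. The latter was Arvcf, another member of the p120-catenin family, at 383 CPM in f/f and 96.3 CPM in d/d (693 and 54 UMIs), a log2 ratio of -1.99 (-2.42 to -1.59). The highest of the 13 was the desmosomal gene Dsp at 0.37 (0.10 to 0.64). The desmosomal cadherin Dsc2, named after its values were seen, fell short of the minimum with 25 and 20 UMIs and had a log2 ratio of 1.37 (0.44 to 2.27). Ctnnd1, which encodes p120-catenin itself and is named here after its values were seen, stood at 198 and 191 CPM.

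Of 9 genes of the doublecortin family and of microtubule-associated proteins, 3 were counted. Map1b stood at 22.7 and 58.8 CPM (log2 ratio 1.375, 0.67 to 2.07), Map7d1 at 113 and 282 CPM (1.31, 1.004 to 1.62) and Map7 at 480 and 519 CPM (0.11, -0.08 to 0.31). The nearest relative of Dclk1, Dclk2, had 12 and 8 UMIs in the epithelial gate and 155 and 23 in the stromal gate, that is 119 and 89.5 CPM in stroma. Dcx had none in either class.

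Many genes of DNA repair by recombination and of the damage response were higher in d/d. Of the listed 31 genes other than Bard1, 25 were counted, with a median log2 ratio of 0.91. At least 2-fold higher were 12 of these 25, beside 5.76% of all counted genes, and 0 were at least 2-fold lower. Its highest members were Cdkn1a, which encodes the cell cycle inhibitor p21, at 2.63 (1.89 to 3.40), Trp53, which encodes p53, at 1.61 (1.33 to 1.89), and Rad51ap1, an accessory factor of recombination, at 1.52 (0.87 to 2.16). Its lowest was Rad51d at -0.90 (-1.46 to -0.38). Genes of replication (23 counted, 14 at least 2-fold higher, median 1.18) and of mitosis (39 counted, 28 at least 2-fold higher, median 1.21) were higher too. In non-cycling cells the summed repair list stood at 1101 CPM in f/f and 1108 CPM in d/d, a log2 ratio of 0.01 (-0.35 to 0.35), and in cycling cells the log2 ratio was 0.32 (0.21 to 0.43). That of Bard1 in cycling cells was 1.88 (1.30 to 2.49).

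The stretches of genome before the gene starts were read because Bard1 was higher in cycling cells in both libraries, and A2ml1, of the highest ratio, is shown beside it. RefSeq windows of 250 bases before to 50 after a start (GRCm38.p6) were found for 4 of the 5 genes, with 2 windows for Dclk1. Both strands were searched for 3 forms of the E2F site (TTTCCCGC, TTTGGCGC and TTTCGCGC), the letters TTTGAA of the cell cycle homology element, the CCAAT box, the palindromic estrogen response element and the TATA box TATAAA, the last of these added after the sequences had been read. Bard1 held TTTCCCGC at -209 from its RefSeq start and TTTGAA at -242. The first occurs in 1.07% of 32817 windows and the second in 17.9%. A2ml1 held TATAAA at -30 and none of the 3 E2F forms, and TATAAA occurs in 13.6% of windows. Each share of windows in this paragraph counts the letters at any position and on either strand. Dclk1 held CCAAT at -48 (37.4% of windows). Ctnnd2 and the other Dclk1 window held none of these, and no member held the estrogen response element, which occurs in 0.0701% of windows. A match is a description of letters, and the files hold no measure of binding. The Bard1 and A2ml1 stretches, shown up to the base before the gene as GENCODE M21 annotates it, are printed 5′ to 3′ on the strand of the gene, with the E2F letters of Bard1 and the TATA letters of A2ml1 in capitals.
Bard1, chr1:71103147-71103222, minus strand: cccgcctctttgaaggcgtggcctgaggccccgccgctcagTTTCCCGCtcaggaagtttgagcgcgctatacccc
A2ml1, chr6:128581609-128581856, minus strand: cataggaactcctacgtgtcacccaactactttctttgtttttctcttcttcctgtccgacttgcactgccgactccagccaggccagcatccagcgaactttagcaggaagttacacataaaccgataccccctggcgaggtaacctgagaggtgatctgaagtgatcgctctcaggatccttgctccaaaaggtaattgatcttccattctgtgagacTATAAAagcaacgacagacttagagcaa

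Genes with the most similar profile were looked up over 8 points, the epithelial, stromal, endothelial and myeloid gates of each library, by Pearson's correlation of log2(CPM + 10) among 11058 genes. These are descriptions of 8 sums that share libraries and depth. The genes nearest to A2ml1 were Mnd1 (r = 0.994), Gdf15 (0.988) and Adam28 (0.979), and Gdf15, which encodes a stress-induced cytokine, stood at 3.87 and 53.5 CPM in epithelial-gated cells and 1.53 and 35.0 CPM in stromal-gated cells. Ctnnd2 was nearest to Cenpn (r = 0.941), Ska3 (0.926) and Espl1 (0.925), and Bard1 to Lurap1l (0.967), Ska1 (0.965) and Cdca2 (0.959). Dclk1 was nearest to Ptbp2 (0.962), Galnt17 (0.959) and Ninl (0.945). A2m was nearest to Stk26 (0.999), Espn (0.999) and Amph (0.997), which like A2m were highest in d/d stromal-gated cells, at 23.4, 35.0 and 46.7 CPM.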

How the data were processed

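The deposited values are unnormalized UMI counts for each gene in each barcode, and per the file headers Cell Ranger 9.0.0 made them. The genome build used for counting is not settled: the submitters' processing notes list mm10 and GRCm39. Barcodes with at least 200 genes and at most 10% mitochondrial UMIs were kept. No doublet caller was run; the gate left out cells with over 25% of their marker UMIs from other classes, and cells with fewer could pass. Counts were summed by class and library with Python 3.11.15, numpy 2.4.6 and scipy 1.17.1, and scaled to CPM of the class. Clusters came from scanpy 1.11.5 and leidenalg 0.10.2 (2000 variable genes, 30 components, 15 neighbours, resolution 1). With 1 library per genotype no test was run. Sums have exact Poisson intervals, shares Clopper-Pearson intervals and ratios exact conditional binomial intervals, all at 95% and for counting error only; a count of 0 was limited at 3 counts. The ratio script was checked on simulated data. Members, lists and marker sets were chosen with earlier results of these data known. Besides the members, the text names the 3 most similar genes per member and the 5 non-members of highest ratio. From each list the up to 3 highest and 3 lowest ratios were picked for naming, and only some of these are named. Some relatives of the members outside this rule are named too. Total UMIs deposited were 6819591 (f/f) and 2866862 (d/d).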

Additional observations from a re-analysis of the deposited data

How the results depend on the processing

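Across the 7 to 13 alternatives per value that gave a ratio, the log2 ratios of A2ml1, Dclk1, Ctnnd2 and Bard1 stayed above 0 in all epithelial cells (lowest 2.39, for Bard1), in cycling cells (lowest 1.40, for Bard1) and in non-cycling cells (lowest 1.65, for Ctnnd2). In non-cycling cells the interval stayed above 0 in 11 of 11 alternatives for Dclk1, 10 of 11 for Ctnnd2, 7 of 10 for Bard1 and 5 of 12 for A2ml1. With the replication genes alone dividing the cells, the Dclk1 log2 ratio in cycling cells moved to 5.92, from 1 f/f UMI. The share of cycling cells moved with the setting and was higher in d/d under each. In f/f and d/d it was 57.5% and 92.7% with thinning to 1000 UMIs, 44.9% and 79.1% without thinning, 14.3% and 38.1% with replication genes alone, 19.7% and 59.9% with mitosis genes alone, and 22.1% and 68.1% with at least 3 cycle UMIs. It was 36.5% in f/f with clusters and 79.3% in d/d with the stricter gate (at least 3 marker UMIs and 90%). Leaving out barcodes whose first 16 bases occur in both libraries, an alternative chosen after seeing the data, kept all 4 epithelial ratios between 3.005 and 3.801. There, and under each other thinning, UMIs were drawn anew, and the non-cycling A2ml1 ratio was 2.41 (0.26 to 4.25) in that draw. A2m had no f/f UMI in epithelial-gated cells, so its epithelial ratio has no value. Where a count was 0 in 1 library under an alternative, no ratio was given, and that setting is not in the counts above. In non-cycling cells this left out thinning to 1000 UMIs for Dclk1, Ctnnd2 and Bard1, and the stricter gate for Bard1. No paired analysis was possible because each genotype has 1 library. Depth limits the non-cycling values, carried by 90 d/d cells, and those of the gland set, with 10 d/d cells.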
